A study of Mus musculus with 30 samples.

Results

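The genes described here are the enzymes and transcriptional regulators of de novo lipogenesis, the route by which the liver cell builds fatty acids from acetyl-CoA. They were chosen by name, as a list of 10 mouse genes, and found by matching the Ensembl identifiers of the count files to gene symbols. All 10 (Srebf1, Mlxipl, Acly, Acss2, Acaca, Acacb, Fasn, Elovl5, Elovl6 and Me1) were present among the 49089 identifiers counted, and 9 of them had enough reads to be tested. RNA-seq was performed in 30 samples of AML12 cells, a line established from hepatocytes of mice that carry a human TGF-alpha transgene. The cells received a non-silencing siRNA (Control), siRNA against FoxK1 (FoxK1 KD), siRNA against FoxK2 (FoxK2 KD) or both knockdowns together (DKD). FoxK1 and FoxK2 are forkhead transcription factors. Insulin, where it was added, was present at 100 nM for 6 h, and basal cells had a mock treatment. Serum had been withdrawn from both the night before, with 0.1% BSA in its place. Each group had 4 replicates, except insulin-stimulated Control and DKD cells with 3 each. The labels give basal cultures a time of 0 min while the study's text speaks of vehicle for 6 h, so it was not settled whether basal cells were harvested at the same hour as stimulated cells. Every group comes from 1 cell line under transient knockdown, and nothing in the labels says that replicates were independent transfections, so p-values measure the spread between these samples, which may be technical.

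In hepatocytes, citrate leaves the mitochondria and is split by ATP citrate lyase (Acly) into acetyl-CoA and oxaloacetate, while acetyl-CoA synthetase 2 (Acss2) makes acetyl-CoA from acetate. Acetyl-CoA carboxylase 1 (Acaca) turns acetyl-CoA into malonyl-CoA, fatty acid synthase (Fasn) joins these units into palmitate with NADPH, part of which malic enzyme (Me1) provides, and the elongases Elovl6 and Elovl5 lengthen the products. SREBP-1 (the product of Srebf1) and ChREBP (the product of Mlxipl) are the transcription factors best known for driving these genes after feeding, the first in response to insulin and the second in response to glucose. Acetyl-CoA carboxylase 2 (Acacb) makes malonyl-CoA at the mitochondrial surface, where it restrains fatty acid oxidation.

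The promoters of 4 of the genes are shown as examples of matches to binding motifs of factors linked to lipogenesis or to the forkhead family. Other genes of the set also carried matches. Windows of 300 bases, from 250 before to 50 after the annotated start, were available from RefSeq (GRCm38.p6) for all 10 genes, in 14 windows because some genes have several starts. The letters searched, on both strands, were CACGTG (the E-box, which reads the same on both strands), ATTGG (the inverted CCAAT box), TCACCCC (the core of a sterol regulatory element) and TGTTTAC (a forkhead core). In the lines below, capitals mark the matches, and the rest is in lower case. The first 3 sequences run from base -180 to base -2 before the start: Fasn at chr11:120824549-120824727 on the minus strand, Mlxipl at chr5:135089710-135089888 on the plus strand and Elovl5 at chr9:77917185-77917363 on the plus strand. The short Elovl6 sequence, at chr3:129532253-129532279 on the plus strand, holds the match with 10 bases on either side and runs from base -133 to base -107.
Fasn: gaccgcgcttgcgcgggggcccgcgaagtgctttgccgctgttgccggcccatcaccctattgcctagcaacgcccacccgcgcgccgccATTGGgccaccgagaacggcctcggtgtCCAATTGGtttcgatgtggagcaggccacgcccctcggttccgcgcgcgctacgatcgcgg
Mlxipl: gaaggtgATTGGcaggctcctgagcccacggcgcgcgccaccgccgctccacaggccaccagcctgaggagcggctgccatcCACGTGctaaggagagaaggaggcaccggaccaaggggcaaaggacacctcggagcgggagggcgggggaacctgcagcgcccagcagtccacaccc
Elovl5: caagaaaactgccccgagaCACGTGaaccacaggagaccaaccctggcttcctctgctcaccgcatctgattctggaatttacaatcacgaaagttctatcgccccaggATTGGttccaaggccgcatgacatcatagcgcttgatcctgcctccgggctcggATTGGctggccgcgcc
Elovl6: ccaccttcttGTAAACAaaactatccc
The E-box was present in the windows of Mlxipl (from base -98) and Elovl5 (from base -161), and 7.149% of all 32817 RefSeq windows of this length held one. The inverted CCAAT box was present in 9 of the 14 windows, belonging to 8 of the 10 genes, beside 37.39% of all windows. In Fasn it lay on the strand of the gene from bases -90 and -59, and the second of these overlapped a match on the other strand from base -62. The forkhead core lay in the window of Elovl6 alone among these genes, on the opposite strand from base -123, beside 3.647% of all windows. The sterol regulatory core was in none of the 14 windows and in 4.967% of all windows. Only these exact letters were searched, so variants of the element were not counted. The only Acaca window had its start at chr11:84195438, inside the gene, which begins at base 84129672. The only Acacb window had its start at chr5:114165518, inside the gene, which begins at base 114146535. Other starts of Acaca and Acacb were not searched. These matches describe letters only, and no measurement of binding at them was analysed here.

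Libraries held between 2141460 and 5668270 counts on genes. Levels are given as CPM (counts scaled to a common library total) on library sizes adjusted by the TMM method, which compares 1 gene between samples. The targeted genes followed the labels at basal: Foxk1 was at 27.4 to 42.0 CPM in FoxK1 KD and 42.9 to 49.7 CPM in DKD cells, against 66.2 to 88.4 CPM in Control, and Foxk2 was at 42.9 to 50.6 CPM in FoxK2 KD and 41.9 to 54.7 CPM in DKD cells, against 133 to 149.7 CPM in Control. After insulin, Foxk1 was at 49.0 to 57.8 CPM in Control, 28.0 to 35.3 CPM in FoxK1 KD and 30.5 to 40.9 CPM in DKD cells, and Foxk2 at 157 to 168, 62.0 to 68.9 (FoxK2 KD) and 59.0 to 67.6 CPM (DKD). Foxk2 was also lower in FoxK1 KD cells at basal, at 0.835 times Control (adjusted p = 0.0487). Of 12 hepatocyte markers, 10 passed the filter on low counts, among them Hnf4a (mean 134 CPM) and Apob (588 CPM), while albumin (Alb) averaged 10.4 CPM and Apoa1 0.53 CPM. The biliary markers Krt19 (488 CPM), Sox9 (201 CPM) and Spp1 (1391 CPM) were also present, with Epcam at 0 in every sample. The markers of stellate cells, endothelial cells, leukocytes and adipocytes did not pass the filter, and Adipoq, Lep and Plin1 were at 0 throughout. The library of Control basal replicate 1 stood apart from the other 3 of its group, and calls and counts that changed without it are given both ways. The share of mitochondrial transcripts was lower in DKD cells at basal (0.989% to 1.26%) than in Control (1.319% to 2.13%).

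The 10 genes spanned a wide range of levels. Per kilobase of exon (RPKM, which allows genes to be compared), Acly (mean 278 RPKM over the 30 samples) and Me1 (265 RPKM) were the most abundant. Elovl5 (72.4 RPKM), Fasn (54.7 RPKM), Srebf1 (44.9 RPKM) and Elovl6 (41.8 RPKM) formed a middle range. Acaca averaged 6.74 RPKM, Acss2 2.52 RPKM and Mlxipl 2.21 RPKM. Acacb, at 0.0523 RPKM, was close to undetected. It received 55 counts in all 30 libraries together, at most 6 in any 1 of them, and 0 in 5 libraries, so it did not pass the filter and was not tested. Its group means lay between 0.0727 CPM in basal DKD cells (1 count in 4 libraries) and 1.05 CPM in insulin-stimulated Control cells (11 counts in 3 libraries). Acacb was at or below 0.284 CPM in the 4 basal Control cultures and at 0.632 CPM or above in the 3 stimulated ones, a difference that rests on 3 counts against 11 and was not tested.

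**Figure D1:**
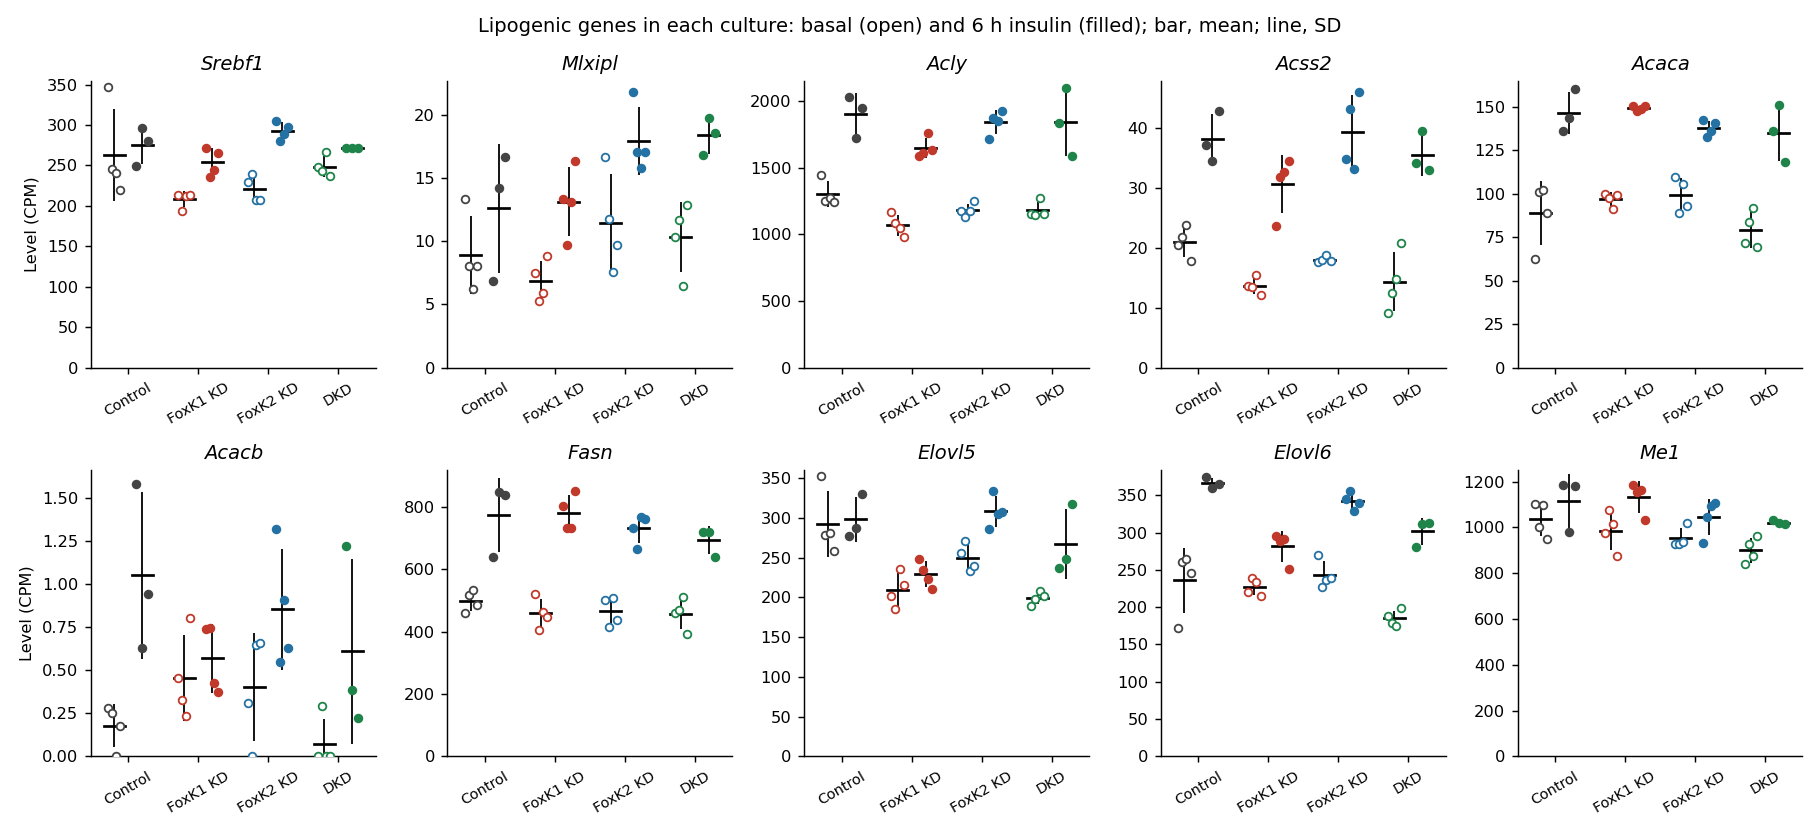
Level of each of the 10 lipogenic genes (CPM, vertical axis starting at 0, a separate scale for each gene) in every culture of the 4 siRNA conditions, with open points for basal and filled points for insulin, bars for group means and vertical lines for the SD (n = 3 or 4). For Acly, Acss2, Acaca and Fasn the filled points lie above the open points of the same cells in every condition, while for Elovl5 and Me1 they overlap in Control cells, and Control basal replicate 1 is the high open point of Srebf1 and Elovl5 and the low one of Acaca and Elovl6.

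To ask whether the basal expression of these genes depends on FoxK1 or FoxK2, each knockdown was compared with Control without insulin. In FoxK1 KD cells, 4 of the 9 tested genes fell (Srebf1, Acly, Acss2 and Elovl5) and none rose, beside 14.9% of all 11368 tested genes that fell, 11.7% that rose and 26.6% that changed in either direction (FDR below 0.25, edgeR's quasi-likelihood test). In FoxK2 KD cells none of the 9 passed the test, beside 3.59% of all genes (408 genes), 1.58% higher and 2.01% lower. At an unadjusted p below 0.05, 1272 genes of all those tested differed in FoxK2 KD cells. In DKD cells, 5 of the 9 fell (Acly, Acss2, Elovl5, Elovl6 and Me1) and none rose, beside 22.4% of all genes that fell, 21.2% that rose and 43.6% that changed. The median log2 fold change over the 9 genes was -0.28 in FoxK1 KD, -0.12 in FoxK2 KD and -0.18 in DKD cells, against -0.01, -0.01 and -0.000562 over all genes tested. All 3 comparisons share the 4 basal Control cultures, so their values are not independent of each other.

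Among the regulators, Srebf1 (chr11:60199089-60222581 on GRCm38, minus strand) was at 347, 245, 240.4 and 219 CPM in the 4 basal Control cultures, at 214, 193, 213 and 213 CPM in FoxK1 KD, at 229.7, 239.6, 207 and 208 CPM in FoxK2 KD and at 249, 243, 266 and 236 CPM in DKD cells. Every FoxK1 KD culture lay below every Control culture, while the FoxK2 KD and DKD cultures overlapped Control. The log2 fold change was -0.33 ± 0.0927 (SE) in FoxK1 KD (adjusted p = 0.0231), -0.25 ± 0.0924 in FoxK2 KD (adjusted p = 0.27) and -0.08 ± 0.0928 in DKD cells (adjusted p = 0.589). Without Control basal replicate 1, the highest of the Control values, the FoxK1 KD change was -0.17 (adjusted p = 0.227), and the FoxK2 KD change was -0.08 (adjusted p = 0.796). Without Control replicate 2, 3 or 4 instead, Srebf1 passed the test in FoxK2 KD cells, with changes of -0.28, -0.29 and -0.33 (adjusted p = 0.204, 0.174 and 0.0695). The counts are per gene and do not separate the SREBP-1a and SREBP-1c transcripts.

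Mlxipl (chr5:135089890-135138382, plus strand) was measured on few reads, between 14 and 99 counts per library. It was at 13.3, 8.0, 6.20 and 8.04 CPM in basal Control cultures, 7.47, 5.28, 5.88 and 8.83 CPM in FoxK1 KD, 16.7, 11.8, 7.56 and 9.67 CPM in FoxK2 KD and 10.3, 11.6, 6.48 and 12.8 CPM in DKD cells. All groups overlapped, and no knockdown passed the test (log2 fold change -0.34 ± 0.266 in FoxK1 KD, 0.35 ± 0.243 in FoxK2 KD and 0.28 ± 0.254 in DKD cells). Intervals of 95% ran from -0.86 to 0.18 in FoxK1 KD and from -0.21 to 0.78 in DKD cells. Without Control basal replicate 1 the DKD change was 0.51 and passed the test (adjusted p = 0.137).

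The enzymes that supply acetyl-CoA were lower in FoxK1 KD and DKD cells. Acly (chr11:100476353-100528000, minus strand) was at 1442, 1248, 1274 and 1238 CPM in basal Control cultures and at 1166, 1085, 1045 and 978 CPM in FoxK1 KD, all 4 below every Control culture. The log2 fold change was -0.28 ± 0.0784 (adjusted p = 0.0218). In DKD cells Acly was at 1149, 1141, 1269.7 and 1154 CPM, which overlapped Control, and the change of -0.14 ± 0.0785 passed the test narrowly (adjusted p = 0.2). That call was lost without Control replicate 1 (-0.09, adjusted p = 0.394) and without DKD replicate 1, 2 or 4 (-0.14 in each case, adjusted p = 0.296, 0.297 and 0.265). In FoxK2 KD cells Acly was at 1132 to 1249 CPM (log2 fold change -0.14 ± 0.0783, adjusted p = 0.523).

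Acss2 (chr2:155517948-155585724, plus strand) had the largest decrease of the set in FoxK1 KD cells. It was at 20.4, 21.8, 23.8 and 17.9 CPM in Control, at 13.6, 13.5, 15.5 and 12 CPM in FoxK1 KD and at 9.19, 12.5, 14.8 and 20.8 CPM in DKD cells. The FoxK1 KD cultures lay below all Control cultures, and 3 of the 4 DKD cultures did. Acss2 was at 0.659 times Control in FoxK1 KD (log2 fold change -0.60 ± 0.165, adjusted p = 0.0206) and at 0.693 times Control in DKD cells (-0.53 ± 0.169, adjusted p = 0.0224). With FoxK2 KD it was at 17.6 to 18.8 CPM (-0.21 ± 0.157, adjusted p = 0.656).

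The enzymes that build palmitate did not pass the test in any knockdown at basal. Acaca (chr11:84129672-84401651, plus strand) was at 62.7, 101, 102 and 89.1 CPM in Control, 99.8, 97.4, 91.3 and 99.3 CPM in FoxK1 KD, 109.6, 89.2, 105 and 93.2 CPM in FoxK2 KD and 71.8, 83.8, 91.6 and 69.6 CPM in DKD cells. Control replicate 1 was the lowest of all basal cultures. The DKD change of -0.18 ± 0.109 was just outside the threshold (adjusted p = 0.254). Without Control replicate 1 it was -0.31 and passed (adjusted p = 0.0112), and without DKD replicate 2 or 3 it passed as well (-0.22 and -0.25, adjusted p = 0.218 and 0.133).

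Fasn (chr11:120805846-120824547, minus strand) was at 458, 516, 534 and 486 CPM in Control, 519.5, 406, 463 and 446 CPM in FoxK1 KD, 502, 416, 506 and 437 CPM in FoxK2 KD and 459, 469.7, 509 and 393 CPM in DKD cells. The 4 groups overlapped. The log2 fold changes were -0.12 ± 0.0932, -0.10 ± 0.0931 and -0.13 ± 0.0935, with 95% intervals that reached -0.30, -0.28 and -0.31. The DKD change of Fasn passed the test without Control replicate 1 (-0.17, adjusted p = 0.189) and without DKD replicate 3 (-0.19, adjusted p = 0.209).

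The elongases differed from each other. Elovl5 (chr9:77917364-77984519, plus strand), which extends polyunsaturated and some shorter fatty acids, was at 352, 278, 281 and 259 CPM in Control, 202, 186, 236 and 216 CPM in FoxK1 KD, 256, 272, 233 and 240.0 CPM in FoxK2 KD and 189, 198, 208 and 202 CPM in DKD cells. All FoxK1 KD and all DKD cultures were below all Control cultures. The log2 fold change was -0.48 ± 0.094 in FoxK1 KD (adjusted p = 0.00148), -0.22 ± 0.0933 in FoxK2 KD (adjusted p = 0.33) and -0.55 ± 0.095 in DKD cells (adjusted p = 8.84e-05). Without Control replicate 1 the FoxK1 KD change was -0.37 (adjusted p = 0.0101) and the DKD change -0.46 (adjusted p = 0.000259). Without Control replicate 4, Elovl5 passed in FoxK2 KD cells too (-0.28, adjusted p = 0.159).

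Elovl6 (chr3:129532355-129638495, plus strand), which extends palmitate to stearate, was at 172, 261, 264 and 246 CPM in Control and at 188, 179, 175 and 198 CPM in DKD cells. The 4 DKD cultures were below 3 Control cultures and above the remaining one, replicate 1. Elovl6 fell in DKD cells (log2 fold change -0.35 ± 0.0908, adjusted p = 0.00553), and without Control replicate 1 the change was -0.48 (adjusted p = 9.08e-06). In FoxK1 KD cells Elovl6 was at 215 to 239 CPM (-0.06 ± 0.0895, adjusted p = 0.738), and without Control replicate 1 its change of -0.18 passed (adjusted p = 0.181). With FoxK2 KD it was at 226 to 269 CPM (0.04 ± 0.0892, adjusted p = 0.908).

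Me1 (chr9:86581371-86695953, minus strand), the cytosolic malic enzyme, was at 1101, 1000.4, 1098 and 949 CPM in Control and at 839, 927, 875 and 962 CPM in DKD cells. The ranges overlapped by 1 culture of each group. The log2 fold change in DKD cells was -0.20 ± 0.0775 (adjusted p = 0.0587). Me1 was at 877 to 1075 CPM in FoxK1 KD (-0.07 ± 0.0773) and at 929 to 1017 CPM in FoxK2 KD cells (-0.12 ± 0.0773), neither of which passed.

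**Figure D2:**
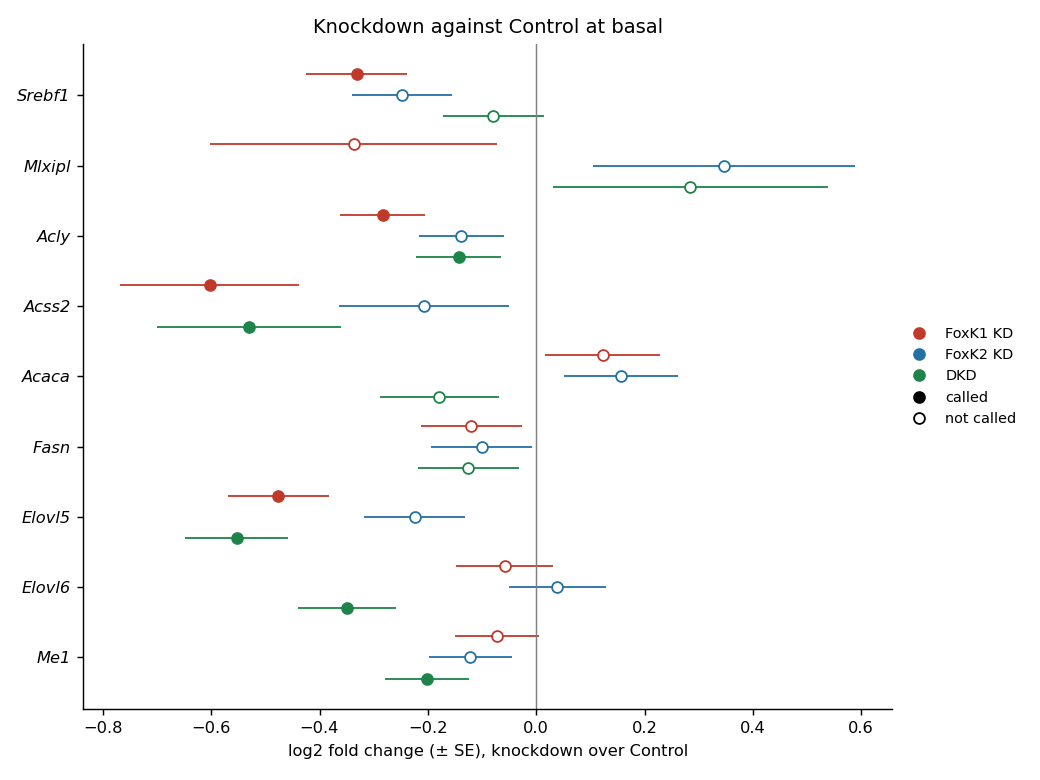
Log2 fold change of the 9 tested genes in FoxK1 KD, FoxK2 KD and DKD cells over Control at basal (horizontal axis, points with SE from edgeR, filled where the FDR was below 0.25). The filled points, 4 for FoxK1 KD, none for FoxK2 KD and 5 for DKD, all lie left of 0, with Elovl5 and Acss2 the furthest left.

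Without Control basal replicate 1, the count in FoxK1 KD cells was 5 of 9 lower, and in DKD cells 6 lower (Acss2, Acaca, Fasn, Elovl5, Elovl6 and Me1) and 1 higher (Mlxipl). Without that library, 13.6% of all genes changed in FoxK1 KD and 49.3% in DKD cells. Over all genes, those richer in GC had higher DKD estimates (Spearman 0.47 across genes, which are not independent replicates). The part of the mitochondrial share in the DKD values was not tested. When the fit was corrected for GC content and gene length, 7 genes fell in DKD cells: Fasn (-0.31, adjusted p = 0.00657), Srebf1 (-0.26, adjusted p = 0.0168) and Acaca (-0.15, adjusted p = 0.236) joined, and Me1 (-0.12, adjusted p = 0.264) was lost. The share of all genes that fell under this correction is not given here.

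To ask how the lipogenic genes respond to insulin, stimulated and basal cultures of the same cells were compared, and a gene counted as changed if it moved by more than 1.5-fold and its FDR stayed below 0.25. In Control cells 4 of the 9 tested genes rose (Acss2, Acaca, Fasn and Elovl6), beside 6.08% of all tested genes that rose, 5.95% that fell and 12% that changed. In FoxK1 KD cells 5 rose (Mlxipl, Acly, Acss2, Acaca and Fasn), beside 8.21% of all genes that rose, 4.66% that fell and 12.9% that changed. In FoxK2 KD cells 4 rose (Mlxipl, Acly, Acss2 and Fasn), beside 6.32% that rose, 4.33% that fell and 10.7% that changed. With a correction for GC content and gene length, fewer of the 9 passed in FoxK2 KD cells, as given in the closing section. Over all genes, the insulin estimates in FoxK2 KD cells correlated with GC content (Spearman 0.24). In DKD cells 6 rose (Mlxipl, Acly, Acss2, Acaca, Fasn and Elovl6), beside 4.71% that rose, 3.78% that fell and 8.49% that changed. None of the 9 fell in any condition, and all 9 estimates were above 0 in each of the 4. The median log2 fold change over the 9 genes was 0.55 in Control, 0.62 in FoxK1 KD, 0.50 in FoxK2 KD and 0.64 in DKD cells, while that of all genes tested lay between -0.01 and 0.01. Stimulated and basal cultures did not overlap for 5 of the 9 genes in Control, 7 in FoxK1 KD, 7 in FoxK2 KD and 9 in DKD cells. The share of all tested genes without overlap is not given here, and group sizes differed. These counts are therefore not compared between conditions. In these bulk samples, a rise in every cell and a rise in only some cells cannot be told apart.

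Acss2 had the largest increase in every condition. In stimulated Control cultures it was at 37.2, 34.5 and 42.8 CPM, in FoxK1 KD at 23.6, 31.7, 32.6 and 34.5 CPM, in FoxK2 KD at 34.8, 43.2, 33.1 and 46.0 CPM and in DKD cells at 34.1, 39.5 and 32.9 CPM. Every stimulated culture was above every basal culture of the same cells. The increase was 1.83-fold in Control (log2 fold change 0.87 ± 0.157, adjusted p = 7.97e-05), 2.23-fold in FoxK1 KD (1.16 ± 0.167, adjusted p = 2.58e-06), 2.17-fold in FoxK2 KD (1.12 ± 0.148, adjusted p = 6.12e-07) and 2.44-fold in DKD cells (1.29 ± 0.172, adjusted p = 1.57e-06).

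Acly, the most abundant of these transcripts, was at 2028, 1721 and 1949 CPM in stimulated Control cultures, 1584, 1612, 1758 and 1631 CPM in FoxK1 KD, 1712, 1868, 1849 and 1925 CPM in FoxK2 KD and 1837, 2093 and 1585 CPM in DKD cells. All of these lay above the basal cultures of the same cells. Acly was at 1.46 times basal in Control (log2 fold change 0.55 ± 0.084, adjusted p = 7.47e-06), just under the fold minimum, and rose 1.54-fold in FoxK1 KD, 1.56-fold in FoxK2 KD and 1.56-fold in DKD cells (0.62 ± 0.0788, 0.64 ± 0.0785 and 0.64 ± 0.0841). Without Control basal replicate 1 or Control insulin replicate 2 the Control value passed (0.60 and 0.61). The call was lost without FoxK1 KD basal replicate 4 in FoxK1 KD (0.57) and without DKD insulin replicate 2 in DKD cells (0.54), so the side of the minimum on which Acly fell does not separate the conditions.

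Acaca rose in Control, FoxK1 KD and DKD cells. It was at 136, 143 and 160.0 CPM in stimulated Control cultures, 151, 148, 149 and 150.3 CPM in FoxK1 KD, 142, 133, 136 and 140.5 CPM in FoxK2 KD and 136, 151 and 118 CPM in DKD cells, in each case above all basal cultures of the same cells. The fold change was 1.65 in Control (log2 0.72 ± 0.112, adjusted p = 9.52e-06), 1.54 in FoxK1 KD (0.63 ± 0.106, adjusted p = 2.92e-05) and 1.71 in DKD cells (0.77 ± 0.115, adjusted p = 9.43e-06). In FoxK2 KD cells it was 1.39 (0.48 ± 0.104, adjusted p = 0.000723), under the fold minimum. Without Control basal replicate 1, the lowest basal culture, the Control value was 0.59.

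Fasn rose in all 4 conditions. It was at 638, 848 and 838 CPM in stimulated Control cultures, 804, 733, 732 and 850.0 CPM in FoxK1 KD, 731, 665, 768 and 759 CPM in FoxK2 KD and 719.6, 719 and 640.4 CPM in DKD cells. Every stimulated culture exceeded every basal culture of the same cells, with Control replicate 1 the lowest stimulated culture. The fold change was 1.55 in Control (log2 0.64 ± 0.0995, adjusted p = 1.03e-05), 1.7 in FoxK1 KD (0.76 ± 0.0936, adjusted p = 1.3e-07), 1.57 in FoxK2 KD (0.65 ± 0.0932, adjusted p = 1.98e-06) and 1.52 in DKD cells (0.60 ± 0.1, adjusted p = 5.31e-05). Several values lay close to the fold minimum: the call was lost in Control without insulin replicate 2 or 3 (0.57 and 0.56), and in DKD cells without basal replicate 4 (0.53) or insulin replicate 1 or 2 (0.57 each).

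Elovl6 was at 374, 360.0 and 365 CPM in stimulated Control cultures, 295, 289, 291 and 251 CPM in FoxK1 KD, 345, 356, 329 and 339 CPM in FoxK2 KD and 281, 311 and 313 CPM in DKD cells. Stimulated cultures exceeded basal ones in every condition. Elovl6 rose 1.55-fold in Control (log2 0.63 ± 0.0952, adjusted p = 5.34e-06) and 1.63-fold in DKD cells (0.70 ± 0.0971, adjusted p = 2.94e-06). It was at 1.24 times basal in FoxK1 KD (0.31 ± 0.0904, adjusted p = 0.00809) and 1.41 times basal in FoxK2 KD cells (0.50 ± 0.0889, adjusted p = 6.2e-05), both under the fold minimum. The Control value was 0.51 without Control basal replicate 1 and no longer reached the minimum.

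Elovl5 and Me1 moved less. Stimulated Elovl5 was at 278, 287 and 329.8 CPM in Control, 249, 235, 224 and 210.1 CPM in FoxK1 KD, 286, 334, 305 and 308 CPM in FoxK2 KD and 237, 248 and 317 CPM in DKD cells. The groups overlapped basal cultures in Control and FoxK1 KD and were clear of them in FoxK2 KD and DKD cells. The log2 fold changes were 0.03 ± 0.101 (adjusted p = 0.867), 0.13 ± 0.0959 (adjusted p = 0.329), 0.30 ± 0.0935 (adjusted p = 0.0143) and 0.43 ± 0.102 (adjusted p = 0.00328), in that order, and none reached the fold minimum.

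Stimulated Me1 was at 1187, 981 and 1179 CPM in Control, 1185, 1155, 1162 and 1032 CPM in FoxK1 KD, 933, 1047, 1092 and 1108 CPM in FoxK2 KD and 1032, 1017 and 1014 CPM in DKD cells. Only in DKD cells were stimulated and basal cultures apart. The log2 fold changes lay between 0.11 in Control and 0.20 in FoxK1 KD cells (adjusted p between 0.045 and 0.378), and none reached the fold minimum.

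The regulators themselves behaved differently from each other. Stimulated Srebf1 was at 249.7, 296 and 279.8 CPM in Control, 272, 235, 244 and 265 CPM in FoxK1 KD, 305, 279.8, 289 and 297 CPM in FoxK2 KD and 272, 271 and 271 CPM in DKD cells. Control cultures overlapped their basal counterparts, and those of the 3 knockdown conditions did not. The log2 fold changes were 0.07 ± 0.0996 in Control (95% interval -0.13 to 0.26, adjusted p = 0.662), 0.29 ± 0.0941 in FoxK1 KD (adjusted p = 0.0186), 0.41 ± 0.0925 in FoxK2 KD (adjusted p = 0.00112) and 0.13 ± 0.1 in DKD cells (adjusted p = 0.415), all under the fold minimum. The Control value was 0.23 without Control basal replicate 1 (adjusted p = 0.0248).

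Stimulated Mlxipl was at 6.86, 14.2 and 16.7 CPM in Control, 13.3, 9.71, 13.1 and 16.3 CPM in FoxK1 KD, 21.8, 17.1, 15.8 and 17.0 CPM in FoxK2 KD and 16.8, 19.7 and 18.6 CPM in DKD cells. Mlxipl rose 1.89-fold in FoxK1 KD (log2 0.92 ± 0.269, adjusted p = 0.00844), 1.62-fold in FoxK2 KD (0.70 ± 0.222, adjusted p = 0.0172) and 1.71-fold in DKD cells (0.77 ± 0.248, adjusted p = 0.0289). Stimulated and basal cultures were apart in FoxK1 KD and DKD but not FoxK2 KD cells. In Control the value was 0.50 ± 0.266 (adjusted p = 0.173), under the fold minimum, with replicate 1 the lowest stimulated culture. It passed without Control insulin replicate 1 (0.82, adjusted p = 0.0237) or without Control basal replicate 1 (0.72, adjusted p = 0.0409). The FoxK2 KD call was lost without basal replicate 3 (0.54) or insulin replicate 1 (0.57).

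**Figure D3:**
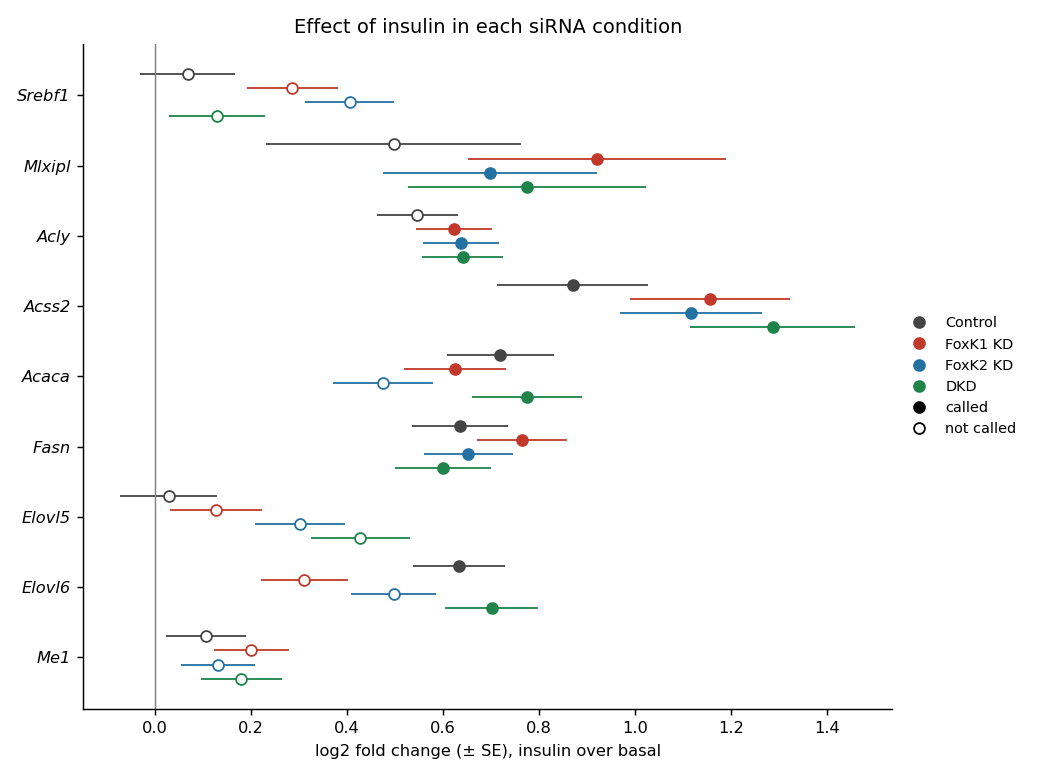
Effect of insulin in each siRNA condition: log2 fold change of the 9 tested genes between stimulated and basal cultures (horizontal axis, points with SE from edgeR, filled where the FDR was below 0.25 and the fold change above 1.5). All points lie right of 0, Acss2 furthest right in each condition at 0.87 to 1.29, and Elovl5, Me1 and Srebf1 closest to 0.

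Whether a knockdown altered the insulin effect was tested directly, as the difference between the insulin effect in knockdown and in Control cells. None of the 9 genes passed for any knockdown (FDR below 0.25 and a fold difference above 1.5), beside 1.55% of all genes for FoxK1 KD (1.17% higher and 0.378% lower), 0% for FoxK2 KD and 4.04% for DKD (2.38% higher and 1.65% lower). For FoxK2 KD no gene of the 11368 passed, while 625 had an unadjusted p below 0.05, and a lower filter on counts (at least 1 count in any sample) gave 37. The differences in calls between conditions above are therefore not shown to be differences in response. Over all genes, the estimated differences also correlated with GC content (Spearman 0.32 for FoxK1 KD, 0.23 for FoxK2 KD and -0.31 for DKD).

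Elovl6 had the lowest estimate for FoxK1 KD, with a log2 difference of -0.32 ± 0.131 (95% interval -0.58 to -0.06, adjusted p = 0.306), which was -0.21 without Control basal replicate 1. Srebf1 was at 0.34 ± 0.136 for FoxK2 KD (0.07 to 0.60, adjusted p = 0.883) and at 0.17 without that library. Elovl5 was at 0.40 ± 0.144 for DKD (0.12 to 0.68, adjusted p = 0.16), under the fold minimum, and at 0.30 without it (adjusted p = 0.221). Acss2 was at 0.42 ± 0.235 for DKD (-0.04 to 0.88, adjusted p = 0.416). Without DKD basal replicate 4, its highest basal DKD culture, Acss2 passed at 0.70 (adjusted p = 0.112). For Fasn the differences were 0.13, 0.02 and -0.04 for FoxK1 KD, FoxK2 KD and DKD, with intervals reaching from -0.14 to 0.40, -0.25 to 0.28 and -0.31 to 0.24.

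After insulin, knockdown and Control cells were compared at an FDR below 0.25. In FoxK1 KD cells 3 of the 9 genes were lower (Acly, Elovl5 and Elovl6) and none higher, beside 7.51% of all genes that were lower, 7.59% that were higher and 15.1% that changed. In DKD cells 1 was lower (Elovl6), beside 2.97% lower, 3.69% higher and 6.66% in all. In FoxK2 KD cells none passed, beside 0.238% of all genes (27 genes, 0.167% higher and 0.0704% lower), while 685 genes had an unadjusted p below 0.05. These comparisons share the 3 stimulated Control cultures.

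Elovl6 fell in FoxK1 KD cells to 0.768 times Control (log2 fold change -0.38 ± 0.0961, adjusted p = 0.02) and Elovl5 to 0.77 times Control (-0.38 ± 0.102, adjusted p = 0.031), with no overlap between the groups for either gene. Acly was at 0.867 times Control (-0.21 ± 0.0843, adjusted p = 0.18). That call was lost without Control insulin replicate 1 or 3 or without FoxK1 KD insulin replicate 1, 2 or 4 (adjusted p = 0.287 to 0.456). In DKD cells Elovl6 was at 0.823 times Control (-0.28 ± 0.102, adjusted p = 0.192) with groups apart, and leaving out any 1 of the 6 libraries ended the call (adjusted p = 0.258 to 0.502). Mlxipl was at 1.48 times Control in DKD cells with groups apart, but did not pass (0.56 ± 0.261, adjusted p = 0.347). Fasn had log2 fold changes of 0.01 ± 0.1, -0.08 ± 0.0998 and -0.16 ± 0.107 in FoxK1 KD, FoxK2 KD and DKD cells. The DKD value passed without Control insulin replicate 1 (-0.28, adjusted p = 0.21).

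The genes around the 10 were examined in lists that follow the pathway. At basal, 26.6% of all tested genes passed in FoxK1 KD (11.7% higher, 14.9% lower), 3.59% in FoxK2 KD (1.58% higher, 2.01% lower) and 43.6% in DKD cells (21.2% higher, 22.4% lower). The count of each list stands beside the 26.6%, 3.59% and 43.6%, which cover changes in either direction. Without Control basal replicate 1 the shares were 13.6%, 1.85% and 49.3%, and that of insulin in Control was 11.6% instead of 12%. The desaturases place double bonds in newly made or dietary fatty acids, and among those listed Scd1 and Scd2 place the first. At basal, 4 of 6 tested desaturases fell in FoxK1 KD cells, 1 fell in FoxK2 KD cells, and 3 fell and 1 rose in DKD cells, beside 26.6%, 3.59% and 43.6% of all genes. The counts without Control basal replicate 1 were 2 lower and 1 higher in FoxK1 KD, 1 lower in FoxK2 KD, and 2 lower and 1 higher in DKD cells. Scd1, the main stearoyl-CoA desaturase of liver, was at 1060 ± 110 CPM in basal Control cells (SD, n = 4) and 604 ± 43.3 CPM in DKD cells (log2 fold change -0.81 ± 0.0775, adjusted p = 5.49e-09). Scd2, a related desaturase whose reads may partly be shared with Scd1, was at 4660 ± 358 and 3096 ± 170 CPM (-0.59 ± 0.0676, adjusted p = 1.51e-07). In FoxK1 KD cells Scd1 fell as well (-0.88, adjusted p = 1.08e-09), and in FoxK2 KD cells it was at -0.24 (adjusted p = 0.171), a call that was lost without Control basal replicate 1 (-0.19, adjusted p = 0.435). After insulin 4 desaturases were lower and 1 higher in FoxK1 KD cells and 1 was lower in DKD cells. The shares of all genes that changed there were 15.1% and 6.66%.

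The insulin response of Scd1 passed the fold minimum in the 3 knockdown conditions (log2 0.68 in FoxK1 KD, 0.75 in FoxK2 KD and 0.96 in DKD cells) and not in Control (0.51 ± 0.082, adjusted p = 1.53e-05). The difference between DKD and Control was 0.45 for Scd1 (adjusted p = 0.0406) and 0.47 for Scd2 (adjusted p = 0.014), both under the fold minimum. They were 0.40 and 0.51 without Control basal replicate 1. Over the 6 desaturases, insulin raised none in Control, 1 in FoxK1 KD, 1 in FoxK2 KD and 2 in DKD cells, beside 12%, 12.9%, 10.7% and 8.49% of all genes that changed. Without that library Fads2, which was chosen after its values were seen, rose in Control (0.59, adjusted p = 1e-07).

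The 14 cholesterol synthesis genes, which SREBP-2 drives, served for comparison. At basal, 12 fell in FoxK1 KD, 2 fell in FoxK2 KD, and 7 fell and 2 rose in DKD cells. Of all genes, 14.9%, 2.01% and 22.4% fell, and 26.6%, 3.59% and 43.6% changed in either direction. Without Control basal replicate 1 the counts of the list were 10 lower, none, and 7 lower and 2 higher. With all libraries the median log2 fold change was -0.30, -0.11 and -0.15. Hmgcs1, an early enzyme of the route, fell in DKD cells (-0.40 ± 0.0883, adjusted p = 0.00135). Insulin raised 5 of the 14 in FoxK1 KD cells and 6 in each other condition, and 7 in Control without Control basal replicate 1. With all libraries, 8.21% of all genes rose in FoxK1 KD, 6.08% in Control, 6.32% in FoxK2 KD and 4.71% in DKD cells. The medians of the 14 were 0.58 in Control and 0.47, 0.56 and 0.55 in the knockdowns, and none of the 14 fell. Fdps (0.89 ± 0.112) and Pmvk (0.76 ± 0.158) were the largest in Control. After insulin, 9 were lower in FoxK1 KD and 4 in DKD cells, beside 7.51% and 2.97% of all genes that were lower.

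Of the 6 genes of the SREBP machinery, which holds and cleaves the SREBP precursors, 1 rose and 2 fell in FoxK1 KD, none changed in FoxK2 KD, and 1 rose and 3 fell in DKD cells, beside 26.6%, 3.59% and 43.6% of all genes. The DKD count was 1 higher and 2 lower without Control basal replicate 1, and the counts of the other knockdowns were as before. The site-1 protease gene Mbtps1 rose in DKD cells (0.42 ± 0.076, adjusted p = 0.000166). Srebf2, which encodes SREBP-2, fell in FoxK1 KD (-0.31, adjusted p = 0.00777) and was at -0.03 in DKD cells (adjusted p = 0.828). Insig1, which retains SREBPs in the endoplasmic reticulum and is itself a target of them, was at -0.17 in DKD cells and passed the test narrowly (adjusted p = 0.248). Insulin changed none of the 6 by more than 1.5-fold in any condition, beside 8.49% to 12.9% of all genes that changed. The insulin effect on Insig1 was 0.30 in Control and 0.34 to 0.37 in the knockdowns.

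Of the 12 nuclear partners of the regulators, 2 rose and 1 fell in FoxK1 KD, none changed in FoxK2 KD and 4 rose in DKD cells, beside 26.6%, 3.59% and 43.6% of all genes. When Control basal replicate 1 was left out, none changed in FoxK1 KD, 1 rose in FoxK2 KD, and 4 rose and 1 fell in DKD cells. Those that rose in DKD cells included Usf1, an E-box binding factor (0.70 ± 0.127, adjusted p = 0.000181), and Mlxip, which encodes the ChREBP relative MondoA (0.35 ± 0.121, adjusted p = 0.0334). Insulin raised 1 and lowered 1 of the 12 in Control, beside 12% of all genes that changed. The one lowered was Usf2 (-0.69 ± 0.232, adjusted p = 0.0261), and this call was lost without Control basal replicate 1 (-0.47, adjusted p = 0.112). Of 9 tested regulators of acetyl-CoA carboxylase, 4 rose and 2 fell in DKD cells and none changed in the other knockdowns, beside 43.6%, 26.6% (FoxK1 KD) and 3.59% (FoxK2 KD) of all genes. In DKD cells 3 rose and 2 fell without Control basal replicate 1, and none changed in the other knockdowns. The AMPK subunit genes moved apart, with Prkag1 higher (0.43 ± 0.138) and Prkaa2 lower (-0.35 ± 0.1). Insulin changed none of these 9 past the fold minimum, beside 8.49% to 12.9% of all genes that changed. Mid1ip1, whose product activates acetyl-CoA carboxylase, was at 0.42 ± 0.12 in Control (adjusted p = 0.00905).

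Of 13 genes that supply citrate and NADPH, 4 fell in FoxK1 KD, none changed in FoxK2 KD, and 4 rose and 2 fell in DKD cells, beside 26.6%, 3.59% and 43.6% of all genes. With Control basal replicate 1 left out, 3 fell in FoxK1 KD, and 6 rose and 3 fell in DKD cells. The pentose phosphate enzymes Taldo1 (0.38 ± 0.133) and Tkt (0.26 ± 0.0883) rose in DKD cells and the pyruvate carrier subunit Mpc2 fell (-0.39 ± 0.124). Insulin raised 3 of them in FoxK1 KD cells and 1 in every other condition, and lowered 1 in each, beside 12.9% of all genes that changed in FoxK1 KD, 12% in Control, 10.7% in FoxK2 KD and 8.49% in DKD cells. Pgd, an NADPH-producing step of the pentose phosphate route, rose in Control (0.62 ± 0.101, adjusted p = 1.55e-05). The gene lowered in Control was Me3, a mitochondrial malic enzyme (-2.08 ± 0.36), which was chosen after its values were seen. Me3 had few reads, at a mean of 1.16 CPM in stimulated and 5.09 CPM in basal Control cells.

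Of 5 tested acyl-CoA synthetases, 3 fell in DKD cells, 2 in FoxK1 KD and none in FoxK2 KD cells, beside 43.6%, 26.6% and 3.59% of all genes, and the counts were the same without Control basal replicate 1. Those lower in DKD cells included Acsl3 (-0.39 ± 0.0773) and Acsl4 (-0.38 ± 0.133). Insulin raised 1 in each condition, beside 4.71% to 8.21% of all genes that rose. In Control this was Acsl1 (0.61 ± 0.122). Of 7 tested elongation partners, 1 fell in DKD cells and 2 in FoxK1 KD cells, beside 43.6% and 26.6% of all genes. Without that library, 1 fell and 1 rose in DKD cells and 1 fell in FoxK1 KD cells. Hsd17b12, the ketoacyl reductase of the elongation cycle, was at 0.53 ± 0.0878 after insulin in Control. Of 14 glycerolipid synthesis genes, 3 rose and 3 fell in FoxK1 KD, 1 rose in FoxK2 KD, and 6 rose and 1 fell in DKD cells, beside 26.6%, 3.59% and 43.6% of all genes. With that library left out, 2 rose in FoxK1 KD, none changed in FoxK2 KD, and 7 rose and 2 fell in DKD cells. Dgat2, which makes triglyceride, rose in DKD cells (0.56 ± 0.119, adjusted p = 0.00102). None of the 14 was called with insulin in any condition, beside 8.49% to 12.9% of all genes that changed. Of 6 tested glycolytic genes of the ChREBP type, 3 fell in FoxK1 KD and 1 rose in DKD cells, beside 26.6% and 43.6% of all genes, and these counts were the same without that library. Insulin lowered 2 of them in Control, beside 5.95% of all genes that fell. Txnip, a strongly glucose-responsive gene named after its values were seen, was among them (-1.72 ± 0.271). Its level was low, at a mean of 2.98 CPM in stimulated and 10.1 CPM in basal Control cells. The summed level of hepatocyte markers was 2785 to 2867 CPM in basal DKD cells and 2153 to 2710 CPM in basal Control cells, without overlap, and its part in these counts was not tested. Most of that sum came from Krt18 (mean 1102 CPM over all samples), Krt8 (706 CPM) and Apob (588 CPM).

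**Figure D4:**
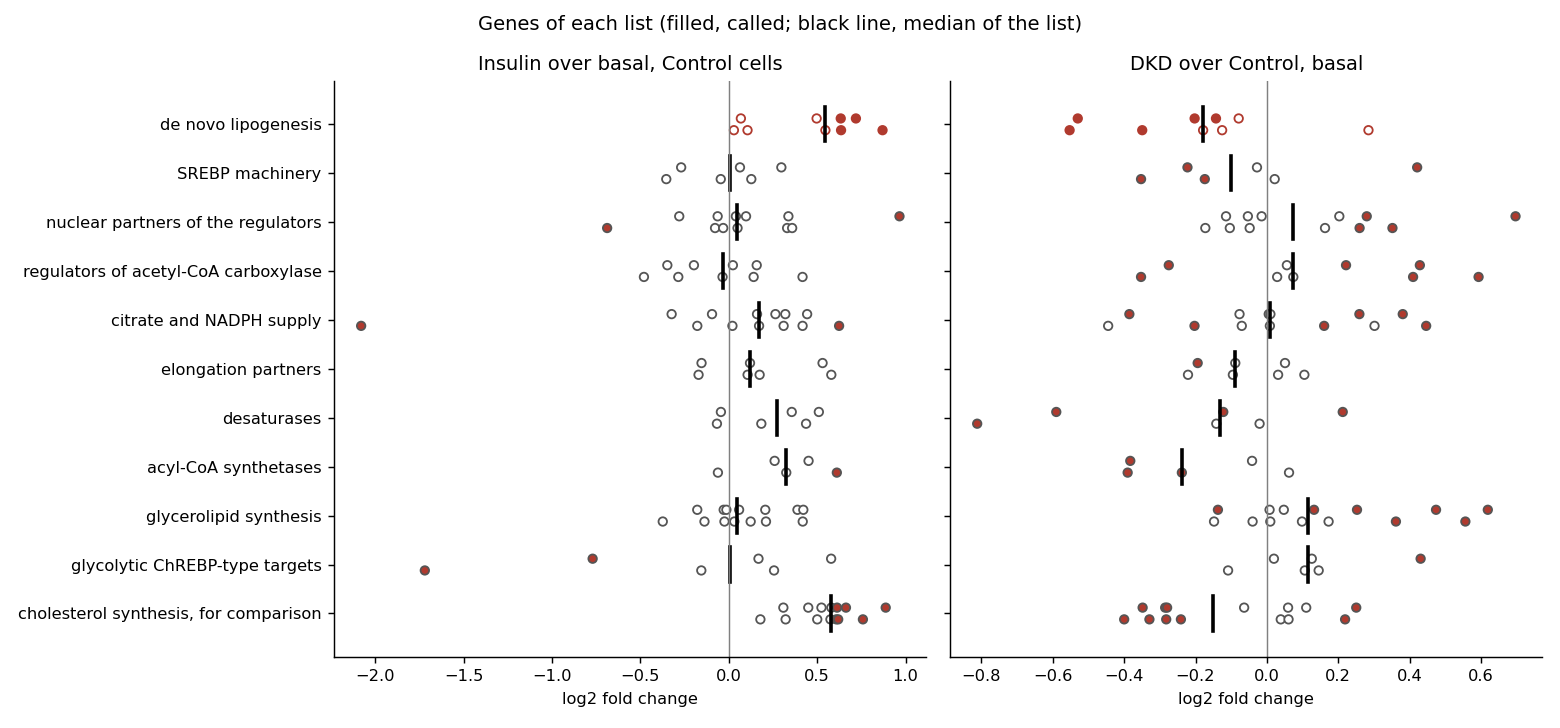
Log2 fold change (horizontal axis) of every tested gene of the 10 lipogenic genes (top row) and of each pathway list, for insulin over basal in Control cells (left) and for DKD over Control at basal (right), with filled points for genes that passed the test and a black line at the median of each list. On the left, the lipogenic genes (median 0.55) and cholesterol synthesis (median 0.58) lie furthest right, and on the right Scd1 (-0.81) and Scd2 (-0.59) lie furthest left.

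Ordered by mean level, the 8 groups separated for few of the genes. Neighbouring groups overlapped throughout for Srebf1, Mlxipl, Acss2, Acacb, Elovl5 and Me1. For Acly, Acaca and Fasn there was 1 gap, between the stimulated groups and the basal groups, and for Elovl6 there were 3. The number of gaps for genes outside the set is not given here. Srebf1 ran from 293 CPM in stimulated FoxK2 KD cells to 208 CPM in basal FoxK1 KD cells, with basal Control (263 CPM) between stimulated DKD (271 CPM) and stimulated FoxK1 KD cells (254 CPM).

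Over the 30 samples, which share libraries, siRNA condition and treatment, the genes most like Srebf1 in level were Srebf2 (Pearson r = 0.90, Spearman rho = 0.91), Ppme1 (0.85 and 0.83) and Tpi1 (0.85 and 0.85), among 9001 genes compared. After subtracting group means, r with Srebf2 was 0.73. Those most like Fasn were Ints1 (0.95 and 0.90), Cad (0.95 and 0.91) and Iars (0.94 and 0.87), of which Cad, the first enzyme of pyrimidine synthesis, kept an r of 0.83 within groups. Those most like Mlxipl were Tnfrsf9 (0.81 and 0.83), Aox1 (0.80 and 0.80) and Gsta3 (0.78 and 0.77), with 0.47, 0.63 and 0.28 within groups. These are descriptions and were not tested.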

How the data were processed

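Gene-level read counts, deposited by the authors as 1 file per sample, were used without rescaling. Per the labels, reads were processed with CASAVA 1.8, aligned with STAR 2.4.2a to GRCm38.p4 and counted with featureCounts. The annotation release, counting options and strand setting are not given in the sources used here, so reads of overlapping, antisense or near-identical genes may be shared. Of 49089 identifiers, 48349 were matched to GENCODE M21. Libraries held 2141460 to 5668270 counts, which limits precision for Mlxipl and Acacb.

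Counts were normalised by TMM and tested with edgeR 4.0.16 (R 4.3.3; quasi-likelihood test) in 1 model of 8 group means, after edgeR's expression filter left 11368 genes. P-values were adjusted by Benjamini-Hochberg over all genes tested, and ± beside a log2 fold change gives its SE. Calls used an FDR below 0.25 for knockdowns, and also a fold change above 1.5 for insulin effects and their differences, thresholds taken from the study. The steps were tested on simulated data. RPKM used GENCODE exon lengths. No 2 replicates were alike within sampling noise.

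The 10 genes and the pathway lists were chosen with earlier results of these data known. From each list, up to 2 higher and 2 lower genes with the largest change were named, among those with an FDR below 0.05 and a mean of at least 10 CPM in the DKD basal or Control insulin comparison. Scd1, Scd2, Insig1 and Srebf2 were always named, as were the 3 genes nearest to Srebf1, Fasn and Mlxipl. Some genes that this rule selects are not reported here. Alternatives were DESeq2 1.42.0, limma-voom (limma 3.58.1), filters of 10 counts in every sample or 1 in any, a fit restricted to the groups of each comparison, a replicate block, a GC content and gene length correction, each library left out, an FDR below 0.05 and the fold minimum switched. Leaving out Control basal replicate 1 is given beside the results because that library stood apart, and its use on the pathway lists was chosen after seeing the data.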

Additional observations from a re-analysis of the deposited data

Results flagged for a closer look

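In groups of 4, a culture was singled out where its gap to the nearest other culture, divided by the range of the group, exceeded Dixon's 95% critical value for 4 samples. This held in 5 of 72 groups, against 3.6 that chance gives. Srebf1 was at 193 CPM in FoxK1 KD basal replicate 2, with the other 3 cultures at 213 to 214 CPM. Acly was at 1269.7 CPM in DKD basal replicate 3, with the others at 1141 to 1154 CPM. Acacb was at 0.291 CPM in DKD basal replicate 2, from 1 count, with the others at 0. Elovl6 was at 250.9 CPM in FoxK1 KD insulin replicate 4, with the others at 289 to 295 CPM. Me1 was at 1017 CPM in FoxK2 KD basal replicate 4, with the others at 929 to 935 CPM. None of them was in the basal Control group.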

How the results depend on the processing

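No fold change that passed its test reversed under any alternative. The number of the 9 genes called moved as follows. With the fold minimum switched, it was 1 for FoxK1 KD and 0 for DKD at basal, 8 for insulin in FoxK1 KD and 9 in FoxK2 KD, 1 for the DKD difference in insulin effect, and 0 for FoxK1 KD and 0 for DKD after insulin. In the same order, 409, 864, 6143, 5625, 1123, 376 and 210 of all 11368 genes were called. At an FDR below 0.05 the number of the 9 genes called was 3 for DKD at basal and 0 for DKD after insulin, beside 2398 and 138 of all genes. For FoxK2 KD at basal it was 1 with DESeq2, 1 with a minimum of 1 count and 1 with the GC and length correction. For insulin in FoxK2 KD it was 1 with the GC and length correction, with or without the replicate block. The share of all genes called in those fits is not given here. For DKD after insulin it was 2 with limma-voom and 0 with a minimum of 1 count. Leaving out 1 library gave 4 to 5, 0 to 2 and 4 to 7 for FoxK1 KD, FoxK2 KD and DKD at basal, 3 to 5 for insulin in Control, 4 to 5 in FoxK1 KD, 3 to 4 in FoxK2 KD and 4 to 6 in DKD, 0 to 0, 0 to 0 and 0 to 1 for the differences in insulin effect, and 2 to 3, 0 to 0 and 0 to 1 after insulin. Among these fits, shares or counts over all genes are given only for Control basal replicate 1. Same-numbered replicates did not deviate together on average (mean r = -0.0134 over 99 pairs, 8 of them over 0.1, the largest 0.199). An average over pairs cannot settle whether the numbers pair the samples, and the labels do not say. With the replicate block the number called was 4 instead of 3 for FoxK1 KD after insulin, adding Acss2 (-0.36, adjusted p = 0.233), and was the same elsewhere. Counts over all genes moved more. At basal, 3028 genes for FoxK1 KD became 993 with only the groups compared, 920 at an FDR below 0.05, 409 with the fold minimum and 1547 without Control replicate 1. The 408 for FoxK2 KD became 5, 43, 90 and 210 in the same order and 691 with the GC and length correction, and the 4952 for DKD became 2398 at an FDR below 0.05 and 864 with the fold minimum. For insulin in Control, FoxK1 KD cells, FoxK2 KD cells and DKD, 1367, 1463, 1211 and 965 became 852, 912, 711 and 552 with 10 counts in every sample and 5303, 6143, 5625 and 4244 with no fold minimum, and 965 became 638 at an FDR below 0.05. For the differences, 176 for FoxK1 KD became 267 with a minimum of 1 count, 97 and 67 with the GC and length correction without and with the block, 386 with no fold minimum, 25 without Control basal replicate 1, and 0 with only the groups compared or at an FDR below 0.05. The 459 for DKD, 59.04% of them higher, became 240 with DESeq2 (72.08% higher), 255 with only the groups compared, 136 at an FDR below 0.05 and 1123 with no fold minimum. After insulin, 1717 for FoxK1 KD became 408 and 376, and 757 for DKD became 138 and 210, at an FDR below 0.05 and with the fold minimum. The 27 for FoxK2 KD became 9 with only the groups compared, 15 with the replicate block, 28 with the GC and length correction and the block (53.57% higher, against 70.37%) and 3 at an FDR below 0.05. The 757 also became 422 with a minimum of 1 count and 352 with only the groups compared. The causes of these changes were not tested. Depth limits what can be said of Mlxipl and Acacb, which had few counts.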
